A study of Homo sapiens with 13 samples.

Results

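NANOS3-positive primordial germ cell-like cells (N3+PGCLC), an early germ cell population induced with BMP2, were compared with the human embryonic stem cells they were made from (4i ESC). The comparison used 4 of the 13 samples of the series, 2 libraries a group, and the 9706 protein-coding genes that the study listed as changed in any of its 3 RNA comparisons. All cells came from WIS2, 1 established human embryonic stem cell line that carries the reporters NANOS3-tdTomato and DMRT1-Venus and, in these groups, no transgene. N3+PGCLC were induced from 4i ESC in RB27 medium with BMP2 at 500 ng/ml, SCF at 100 ng/ml, EGF at 50 ng/ml and ROCKi at 10 µM, and were sorted as TNAP+/NANOS3+. DM+PGCLC, a later group used here for 1 further comparison, started in the same way and were switched on day 3 to activin A at 100 ng/ml and retinoic acid at 20 µM with SCF and EGF at the same doses for 6 further days. The label of DM+PGCLC names DMRT1, and the sort given for it is TNAP+/NANOS3+. 4i ESC were kept on irradiated mouse feeders with KSR at 20%, LIF at 20 ng/ml, bFGF at 8 ng/ml, TGFβ at 1 ng/ml, the GSK3 inhibitor CHIR99021 at 3 µM, the ERK inhibitor PD0325901 at 1 µM, and the p38 inhibitor SB203580 and the JNK inhibitor SP600125 at 5 µM each, and were sorted as TNAP+. The groups therefore differ in medium, feeders, kinase inhibitors and sort as well as in BMP2, and these cannot be told apart.

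Primordial germ cells are the founders of sperm and eggs. BMP ligands bind receptor kinases that phosphorylate SMAD1, SMAD5 and SMAD9, which enter the nucleus with SMAD4 and switch on targets such as the ID, MSX and GATA genes. In human cells this signal leads to SOX17, TFAP2C and PRDM1, which set up germ cell fate, while the same signal is also known to drive amnion and extraembryonic or lateral mesoderm.

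Expression was given as log2(RPKM + 0.1), where RPKM is the read count scaled to transcript length and library size, and levels are written below in RPKM, replicate 1 before replicate 2. Differences are on the log2(RPKM + 0.1) scale with their standard error (SE, n = 2 libraries a group), and a gene was said to rise or fall where this difference was over 1 and the Benjamini-Hochberg adjusted p of limma was under 0.05 across the 9053 genes above 0 in at least 2 of the 4 libraries. By this rule 1161 genes (12.8%) rose and 1060 (11.7%) fell in N3+PGCLC. Of the 2537 tested genes that the study had listed for this same comparison, 75.7% passed, against 4.6% of the other 6516. That list held 994 of the rises and 926 of the falls. It came from the same samples, so these calls largely repeat it and give no independent support. The shares over all tested genes are shares of a preselected set. A description without a model gave similar counts, with both N3+PGCLC libraries more than 1 log2 unit above both 4i ESC libraries for 1009 genes (11.1%) and below them for 939 (10.4%). A call and a lack of overlap rest on the same 4 values, so for a called gene the second adds little to the first. The counts rested on the close 4i ESC pair, and leaving out either N3+PGCLC library leaves the spread to that pair alone. With 4i ESC replicate 1 left out 86 genes passed, and with 4i ESC replicate 2 left out 377. Of the germ cell, BMP and largest-change genes called here, 24 of 68 passed without 4i ESC replicate 1 and 42 of 68 without 4i ESC replicate 2. The deposited levels give no read totals, and relative depth, read from the steps between low values, was 0.835 and 0.865 in N3+PGCLC and 1 and 0.829 in 4i ESC. N3+PGCLC was the pair with the widest spread of the 5 RNA groups. Of genes at 1 RPKM or more in the higher library of the pair, 13.8% differed by over 1 log2 unit between replicates, against 5.26% in 4i ESC.

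Defining genes were read first. NANOS3, an RNA-binding protein that protects germ cells and the gene behind the sort reporter, had 24.3 and 9.41 RPKM in N3+PGCLC and 0 RPKM in each 4i ESC library. Since the gate selected NANOS3 reporter activity, its level is no finding. ALPL, which encodes the TNAP antigen used to sort both groups, had 122 and 88.2 RPKM in N3+PGCLC, against 144 and 128 RPKM in 4i ESC. POU5F1, the pluripotency factor that germ cells retain, had 819 and 553 RPKM in N3+PGCLC, against 389 and 306 RPKM in 4i ESC. DAZL, a marker of later germ cells, was listed at 0 in both N3+PGCLC libraries and had 0.0828 and 0.0250 RPKM in 4i ESC. None of these 4 levels went against the labels.

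Of 15 early germ cell regulators, 12 rose, 1 fell and 2 did not pass, with a median difference of 2.49, against 0.007 over all tested genes. SOX17, the factor that starts the human germ cell programme and is also an endoderm factor, had 198 and 113 RPKM in N3+PGCLC, against 0.240 and 1.10 RPKM in 4i ESC, a difference of 7.87 ± 0.63 (adjusted p = 0.00407, limma). SOX15, a SOX factor of early germ cells, had 109 and 67.4 RPKM in N3+PGCLC, against 16.3 and 15.4 RPKM in 4i ESC. The groups did not overlap for either gene, and replicate 1 was the higher N3+PGCLC library for both. PRDM1, a repressor of somatic genes, had 74.0 and 47.0 RPKM in N3+PGCLC, against 2.53 and 4.24 RPKM in 4i ESC. TFAP2C, its partner in specification, differed less, with 142 and 74.2 RPKM in N3+PGCLC, against 42.3 and 44.1 RPKM in 4i ESC, a difference of 1.25 ± 0.32 (adjusted p = 0.0394, limma). Stem cells thus already carried TFAP2C RNA, while PRDM1 was low in them. TFAP2A, the related factor seen early in germ cell entry and in amnion, had 18.2 and 13.2 RPKM in N3+PGCLC, against 0.0899 and 0.295 RPKM in 4i ESC. GATA3, a GATA factor placed upstream of SOX17 in human cells, had 9.26 and 20.7 RPKM in N3+PGCLC, against 0.228 and 0.217 RPKM in 4i ESC. GATA3 was the single regulator at 1 RPKM or more that stood over 1 log2 unit higher in replicate 2.

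Further regulators rose above a measurable stem cell level. KLF4, a factor shared with the naive pluripotent state, had 74.8 and 40.3 RPKM in N3+PGCLC, against 4.07 and 3.02 RPKM in 4i ESC. VENTX, a homeobox factor, had 58.4 and 32.2 RPKM in N3+PGCLC, against 5.10 and 4.72 RPKM in 4i ESC. BEND4 had 92.7 and 44.2 RPKM in N3+PGCLC, against 10.9 and 11.8 RPKM in 4i ESC, and was the 1 regulator over 1 log2 unit higher in replicate 1. In each of these 3 genes both N3+PGCLC libraries were above both stem cell libraries. TFCP2L1, another factor of naive cells, had 21.2 and 15.9 RPKM in N3+PGCLC, against 2.45 and 2.96 RPKM in 4i ESC. NANOG had 222 and 134 RPKM in N3+PGCLC, against 52.9 and 47.8 RPKM in 4i ESC, a difference of 1.78 ± 0.28 (adjusted p = 0.0118, limma). KLF8 rose to 15.6 and 15.7 RPKM in N3+PGCLC, against 7.36 and 8.02 RPKM in 4i ESC. PRDM14 went the other way and was the 1 regulator that fell, with 15.2 and 13 RPKM in N3+PGCLC, against 36.1 and 39.3 RPKM in 4i ESC. EOMES, a T-box factor that precedes SOX17 in human germ cell entry, had 0.201 and 0.800 RPKM in N3+PGCLC, against 1.44 and 1.60 RPKM in 4i ESC, and did not pass (adjusted p = 0.105, limma). POU5F1 missed the threshold as well (adjusted p = 0.0566, limma). Without 4i ESC replicate 1 the count of regulators that rose was 4, and without 4i ESC replicate 2 it was 8.

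**Figure D1:**
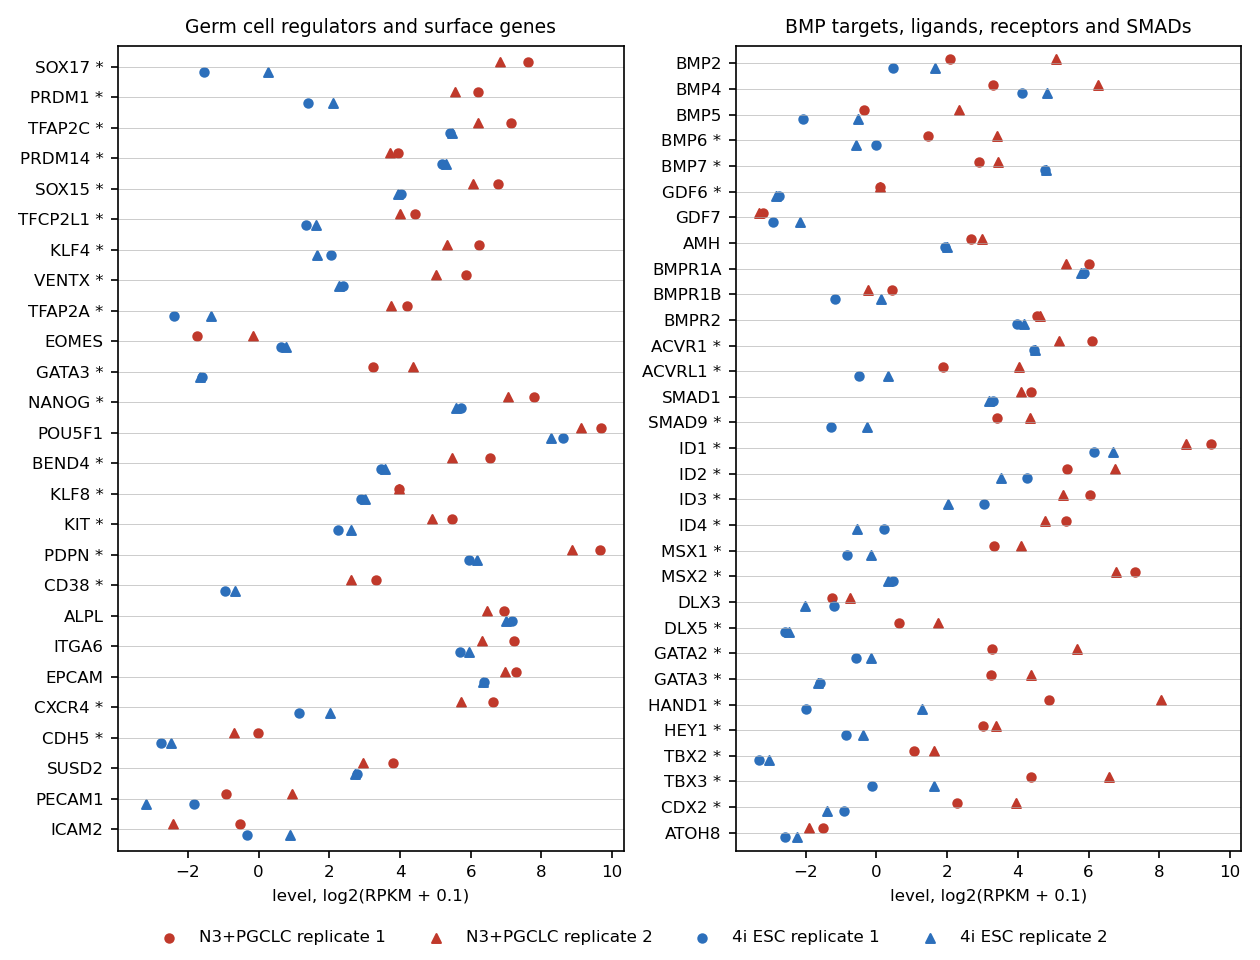
Levels, as log2(RPKM + 0.1), of germ cell regulators and surface genes (left) and of BMP targets, ligands, receptors and SMADs (right) in every library of N3+PGCLC (red, upper of each pair) and 4i ESC (blue, lower); circles are replicate 1, triangles are replicate 2, and an asterisk marks genes that passed the test. SOX17 and MSX2 lie far to the right in N3+PGCLC, while BMP2 and BMP4 are spread between the 2 N3+PGCLC libraries.

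Of 11 tested surface genes, 5 rose, none fell and 6 did not pass. KIT, the receptor for SCF, had 43.9 and 29.6 RPKM in N3+PGCLC, against 4.64 and 6.03 RPKM in 4i ESC. CXCR4, the chemokine receptor that guides migrating germ cells, had 98.6 and 52.7 RPKM in N3+PGCLC, against 2.11 and 3.93 RPKM in 4i ESC, a difference of 4.60 ± 0.42 (adjusted p = 0.00476, limma). PDPN, the podoplanin antigen, had 809 and 464 RPKM in N3+PGCLC, against 62.2 and 72.0 RPKM in 4i ESC. CD38, an antigen of human germ cells, also rose, with 9.88 and 6.06 RPKM in N3+PGCLC, against 0.414 and 0.523 RPKM in 4i ESC. CDH5, a cadherin of endothelium and later germ cells, rose only to 0.895 and 0.522 RPKM in N3+PGCLC, against 0.0482 and 0.0797 RPKM in 4i ESC. Replicate 1 had the higher N3+PGCLC level in all 5. EPCAM and ITGA6, used together as germ cell antigens, stayed under the difference of 1 needed for a call. Of 6 germ cell RNA-binding genes tested, 5 did not pass, and the 1 that rose was NANOS3, for which the gate selected. LIN28A, the let-7 inhibitor needed for germ cell formation, had 401 and 372 RPKM in N3+PGCLC, against 444 and 353 RPKM in 4i ESC, so its groups overlapped. The count of surface genes that rose was 1 without 4i ESC replicate 1.

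Nearly all BMP targets rose. Of 16 genes, 14 rose, none fell and 2 (DLX3 and ATOH8) did not pass, with a median difference of 4.24. ID1, an inhibitor of bHLH factors and a direct SMAD target, had 705 and 435 RPKM in N3+PGCLC, against 71.2 and 102 RPKM in 4i ESC, a difference of 2.70 ± 0.32 (adjusted p = 0.00691, limma). ID2 had 42.1 and 107 RPKM in N3+PGCLC, against 19.2 and 11.4 RPKM in 4i ESC, a difference of 2.17 ± 0.49 (adjusted p = 0.0274, limma). ID3 had 65.4 and 38.5 RPKM in N3+PGCLC, against 8.07 and 4.00 RPKM in 4i ESC. ID2 was the member of the family that was higher in replicate 2, and the others were higher in replicate 1. ID4 had 40.6 and 27.0 RPKM in N3+PGCLC, against 1.07 and 0.588 RPKM in 4i ESC, a difference of 5.21 ± 0.40 (adjusted p = 0.00391, limma). MSX2, a homeobox target, had 158 and 110 RPKM in N3+PGCLC, against 1.27 and 1.16 RPKM in 4i ESC, a difference of 6.64 ± 0.26 (adjusted p = 0.00172, limma). Its relative MSX1 had 9.84 and 16.9 RPKM in N3+PGCLC, against 0.459 and 0.792 RPKM in 4i ESC. Over the list, 14 of 16 genes were over 1 log2 unit higher in both N3+PGCLC libraries than in both 4i ESC libraries. The share over all tested genes was 11.1%.

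The remaining targets that rose were factors of amnion, mesoderm and hindgut, and most of them were higher in replicate 2. HAND1, of extraembryonic mesoderm, had 29.6 and 264 RPKM in N3+PGCLC, against 0.152 and 2.33 RPKM in 4i ESC, a difference of 6.82 ± 1.37 (adjusted p = 0.0211, limma). GATA2 had 9.47 and 51.2 RPKM in N3+PGCLC, against 0.566 and 0.801 RPKM in 4i ESC. TBX3 had 20.6 and 95.5 RPKM in N3+PGCLC, against 0.824 and 2.98 RPKM in 4i ESC. CDX2, of trophoblast, amnion and hindgut, had 4.77 and 15.3 RPKM in N3+PGCLC, against 0.425 and 0.279 RPKM in 4i ESC. In these 4 genes the lower N3+PGCLC library was still above both stem cell libraries. HEY1, TBX2 and DLX5 rose by 3.82, 4.53 and 3.73 log2 units. Over the 14 targets at 1 RPKM or more, replicate 2 was over 1 log2 unit above replicate 1 in 7 and below it in none, yet the summed level was 1107 and 1198 RPKM in N3+PGCLC, against 104 and 128 RPKM in 4i ESC. The largest members were ID1 and MSX2 in replicate 1 and ID1 and HAND1 in replicate 2, so that an even total covered uneven members. The targets that rose numbered 3 without 4i ESC replicate 1, and without 4i ESC replicate 2 they numbered 10.

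The promoters of the ID genes and of BAMBI are shown as descriptions of sequence. The ID genes are in the BMP target list, and BAMBI is counted below among the BMP antagonists. Each line gives the bases just before the transcription start on the gene's strand, from RefSeq on GRCh38.p14, with capitals for GGCGCC, a GC-rich SMAD element of BMP targets, and for TATAAA on either strand (TTTATA on the other); in ID1 both directions overlap.
ID1 at chr20:31605189-31605288, plus strand: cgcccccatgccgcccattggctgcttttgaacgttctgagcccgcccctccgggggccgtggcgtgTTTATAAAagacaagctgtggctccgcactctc
ID2 at chr2:8681956-8682055, plus strand: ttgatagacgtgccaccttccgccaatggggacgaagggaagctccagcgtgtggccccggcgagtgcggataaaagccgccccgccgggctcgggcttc
ID3 at chr1:23559502-23559601, minus strand: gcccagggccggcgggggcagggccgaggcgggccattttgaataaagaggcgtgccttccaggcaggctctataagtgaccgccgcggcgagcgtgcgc
ID4 at chr6:19837270-19837369, plus strand: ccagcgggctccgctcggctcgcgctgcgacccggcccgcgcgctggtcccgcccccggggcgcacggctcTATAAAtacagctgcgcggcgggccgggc
BAMBI at chr10:28677271-28677520, plus strand: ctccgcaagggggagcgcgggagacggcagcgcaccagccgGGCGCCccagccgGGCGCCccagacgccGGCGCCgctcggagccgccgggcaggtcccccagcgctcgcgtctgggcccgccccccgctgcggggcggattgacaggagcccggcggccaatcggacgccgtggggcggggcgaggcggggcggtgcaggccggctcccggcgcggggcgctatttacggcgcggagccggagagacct

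In windows of 300 bases, from 250 before to 50 after the start, BAMBI held 3 matches to GGCGCC and the ID genes held none. TATAAA stood in ID1 and ID4, with its first base at -31 and -29 from the start, and not in ID2, ID3 or BAMBI. Of 35116 promoters in the RefSeq table, 19.2% held GGCGCC and 11.5% held TATAAA. Of the 11 genes of the BMP target list with a promoter there, among which BAMBI is not counted, 2 held GGCGCC. A match is a description of these letters only, and the known SMAD-bound enhancers of the ID genes lie outside such windows.

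BMP ligands were mixed and uneven between the replicates. Of 8 tested, 2 rose, 1 fell and 5 did not pass. BMP2, the ligand that was also added as protein, had 4.09 and 34.0 RPKM in N3+PGCLC, against 1.27 and 3.04 RPKM in 4i ESC (adjusted p = 0.113, limma). BMP4, the ligand best known for germ cell induction in the mouse, had 9.79 and 77.2 RPKM in N3+PGCLC, against 17.4 and 28.2 RPKM in 4i ESC, so that replicate 1 lay below and replicate 2 above both stem cell libraries. The replicates of N3+PGCLC differed by 3.02 log2 units for BMP2 and 2.97 for BMP4, more than the groups did. BMP5 had the same shape, with 0.690 and 4.95 RPKM in N3+PGCLC, against 0.137 and 0.592 RPKM in 4i ESC, and did not pass. BMP6 rose, with 2.67 and 10.6 RPKM in N3+PGCLC, against 0.883 and 0.564 RPKM in 4i ESC. GDF6 rose to 0.976 RPKM in both N3+PGCLC libraries, against 0.0491 and 0.0397 RPKM in 4i ESC, and BMP7 fell to 7.31 and 10.8 RPKM, against 27.2 and 28.0 RPKM in 4i ESC. The summed ligand level was 4.60 times as high in N3+PGCLC replicate 2 as in replicate 1. No ligand passed with either 4i ESC library left out, while 6 rose with N3+PGCLC replicate 1 left out and 4 in a fit of all 10 libraries; 2 fell with N3+PGCLC replicate 2 left out.

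Of 7 tested receptors and SMADs, 3 rose and 4 did not pass. SMAD9, a SMAD of the BMP branch, had 10.5 and 20.4 RPKM in N3+PGCLC, against 0.312 and 0.724 RPKM in 4i ESC, a difference of 4.66 ± 0.54 (adjusted p = 0.00679, limma). ACVRL1, the receptor of endothelial BMP signalling, had 3.57 and 16.3 RPKM in N3+PGCLC, against 0.612 and 1.16 RPKM in 4i ESC. ACVR1, a type I receptor, had 68.9 and 35.4 RPKM in N3+PGCLC, against 21.9 and 22.2 RPKM in 4i ESC, and passed at the edge of the threshold. BMPR1A, the main type I receptor, had 64.7 and 41.4 RPKM in N3+PGCLC, against 58.6 and 55.4 RPKM in 4i ESC, and its groups overlapped. None of these genes passed without 4i ESC replicate 1, and 1 did without 4i ESC replicate 2.

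Of 14 tested BMP antagonists, 6 rose, 2 fell and 6 did not pass, and those that rose included the feedback inhibitors that BMP itself induces. BAMBI, a decoy receptor, had 190 and 307 RPKM in N3+PGCLC, against 23.2 and 26.4 RPKM in 4i ESC, a difference of 3.28 ± 0.27 (adjusted p = 0.00407, limma). The inhibitory SMADs moved less. SMAD6 had 28.8 and 70.5 RPKM in N3+PGCLC, against 8.71 and 15.3 RPKM in 4i ESC, and SMAD7 had 30.6 and 52.9 RPKM in N3+PGCLC, against 9.55 and 16.5 RPKM in 4i ESC. SOSTDC1, a secreted inhibitor of BMP and WNT, had 37.3 and 17.9 RPKM in N3+PGCLC, against 0.402 and 0.882 RPKM in 4i ESC. CHRDL2, also secreted, rose as well. FST, follistatin, which binds activin and BMPs, fell to 3.61 and 9.12 RPKM in N3+PGCLC, against 43.3 and 50.1 RPKM in 4i ESC, and CHRDL1 fell as well. BMPER had 6.96 and 49.3 RPKM in N3+PGCLC, against 0.502 and 2.72 RPKM in 4i ESC, and stopped at an adjusted p of 0.0505 (limma). Without either 4i ESC library 2 antagonists rose and none fell.

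Core pluripotency genes split. Of 11 tested, 3 rose, 2 fell and 6 did not pass. SOX2, the partner of POU5F1 in stem cells that human germ cells lack, fell to 0.0296 and 0.20 RPKM in N3+PGCLC, against 138 and 114 RPKM in 4i ESC, a difference of -9.32 ± 0.47 (adjusted p = 0.0028, limma). Beside NANOG, UTF1 rose to 121 and 57.5 RPKM in N3+PGCLC, against 20.8 and 15.5 RPKM in 4i ESC, and L1TD1 rose to 178 and 98.9 RPKM, against 40.7 and 58.2 RPKM in 4i ESC. DPPA4 fell to 194 and 129 RPKM in N3+PGCLC, against 374 and 341 RPKM in 4i ESC. The fall of SOX2 was therefore not shared by the list, in which 6 members did not pass. No core gene rose without either 4i ESC library, and 1 fell.

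Of 14 tested genes of primed pluripotency, 8 fell, 1 rose and 5 did not pass, with a median difference of -2.35. SOX3 fell to 0.109 and 0.349 RPKM in N3+PGCLC, against 12.9 and 9.77 RPKM in 4i ESC, and USP44 fell to 1.17 and 0.924 RPKM, against 27.3 and 24.1 RPKM in 4i ESC. ZIC2, a factor of primed cells and neural ectoderm, had 0.673 and 17.1 RPKM in N3+PGCLC, against 105 and 68.5 RPKM in 4i ESC, and did not pass (adjusted p = 0.0558, limma). OTX2, which blocks germ cell entry in the mouse, had 0.259 and 4.60 RPKM in N3+PGCLC, against 5.05 and 7.70 RPKM in 4i ESC, and did not pass either. Both were low in replicate 1 and partly retained in replicate 2, which was over 1 log2 unit above replicate 1 in 7 of 13 primed genes at 1 RPKM or more. DUSP6, an ERK phosphatase and ERK target, was the 1 that rose, with 10.2 and 29.9 RPKM in N3+PGCLC, against 2.15 and 2.04 RPKM in 4i ESC. No primed gene fell without 4i ESC replicate 1, and 3 fell without 4i ESC replicate 2. Of 7 naive genes tested, TBX3, KLF4 and TFCP2L1 rose and 4 did not pass, and 1 rose without 4i ESC replicate 1.

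Most NODAL ligands tested were lower in N3+PGCLC. Activin and NODAL signal through SMAD2 and SMAD3 and sustain human pluripotency. Of 6 tested ligands 4 fell and 2 did not pass, with a median difference of -2.81. GDF3 fell to 6.43 and 4.13 RPKM in N3+PGCLC, against 37.5 and 54.4 RPKM in 4i ESC. INHBA, the activin A subunit, fell to 0.283 and 0.368 RPKM in N3+PGCLC, against 2.42 and 6.89 RPKM in 4i ESC, and INHBE fell to 0.518 and 0.890 RPKM, against 9.47 and 6.88 RPKM in 4i ESC. Over the 6 ligands, 5 were over 1 log2 unit lower in both N3+PGCLC libraries than in both 4i ESC libraries. The share over all tested genes was 10.4%. NODAL, which with LEFTY2 was chosen after its values were seen, had 9.04 and 9.88 RPKM in N3+PGCLC, against 25.6 and 76.3 RPKM in 4i ESC. TDGF1, its co-receptor, had 40.2 and 30.6 RPKM in N3+PGCLC, against 336 and 427 RPKM in 4i ESC. LEFTY2, a NODAL target and inhibitor, had 49.4 and 42.3 RPKM in N3+PGCLC, against 198 and 264 RPKM in 4i ESC. With either 4i ESC library left out 1 ligand fell. Of 5 antagonists and targets of the pathway 3 fell, and the falls numbered 2 without 4i ESC replicate 1 and 1 without 4i ESC replicate 2. Of 7 receptors and co-receptors TDGF1 fell, CFC1 rose and 5 did not pass, and CFC1 did not pass with either 4i ESC library left out.

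WNT and ERK readouts were mixed, and the part of the GSK3 and ERK inhibitors in the stem cell medium was not tested. Of 13 tested WNT targets, 2 rose and 4 fell, where 12.8% of all tested genes rose and 11.7% fell. TBXT, a mesoderm factor that germ cells also express, rose to 40.7 and 21.5 RPKM in N3+PGCLC, against 5.34 and 11.2 RPKM in 4i ESC. SP5 fell to 22.5 and 21.4 RPKM in N3+PGCLC, against 97.2 and 57.2 RPKM in 4i ESC. LEF1 and CDX1 moved in opposite ways between the N3+PGCLC replicates. LEF1 had 6.50 and 66.1 RPKM in N3+PGCLC, against 8.22 and 8.37 RPKM in 4i ESC, and CDX1 had 33.1 and 6.11 RPKM in N3+PGCLC, against 2.09 and 2.86 RPKM in 4i ESC. Of 10 tested WNT ligands 4 rose and 3 fell, the largest fall being that of WNT10B, to 0.517 and 0.248 RPKM in N3+PGCLC, against 25.3 and 23.5 RPKM in 4i ESC. Of 16 ERK feedback genes 5 rose and 2 fell. SPRY4 rose to 141 and 75.5 RPKM in N3+PGCLC, against 13.3 and 13.4 RPKM in 4i ESC, and ETV5 rose to 88.7 and 45.3 RPKM, against 8.65 and 7.93 RPKM in 4i ESC. CCND1, the cyclin D1 gene, fell to 24.6 and 32.2 RPKM in N3+PGCLC, against 118 and 155 RPKM in 4i ESC. With 4i ESC replicate 1 left out, 1 WNT target and 1 ERK feedback gene rose, none fell, and no WNT ligand passed. With N3+PGCLC replicate 1 left out the balance of the WNT targets turned, to 5 that rose and 2 that fell, and 4 ERK feedback genes fell.

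Genes of cell division hardly differed, while 3 cell cycle inhibitors fell. Of 15 tested S and G2/M genes 1 fell and 14 did not pass, with a median difference of -0.24. CDKN1A, the p21 gene, fell to 4.75 and 6.87 RPKM in N3+PGCLC, against 142 and 91.5 RPKM in 4i ESC. CDKN2A fell to 0.576 and 1.52 RPKM in N3+PGCLC, against 17.1 and 28.8 RPKM in 4i ESC, and CDKN2B fell to 0.154 and 0.180 RPKM, against 1.28 and 3.48 RPKM in 4i ESC. Their groups were apart, and all 3 were low in both N3+PGCLC libraries. Of 8 tested DNA methylation genes 1 rose and 2 fell, where 12.8% of all tested genes rose and 11.7% fell. With so few genes these counts are not read as a result about the list. TET2, a 5-methylcytosine oxidase, rose to 8.63 and 6.92 RPKM in N3+PGCLC, against 1.71 and 1.30 RPKM in 4i ESC, and DNMT3B, a de novo methyltransferase, fell to 22.9 and 39.1 RPKM, against 168 and 153 RPKM in 4i ESC. Without 4i ESC replicate 1, and likewise without 4i ESC replicate 2, 1 inhibitor fell; of the methylation genes none passed in the first case and 1 fell in the second.

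Somatic lineage genes rose beside the germ cell genes. The 10 lists of somatic markers held 175 genes, each gene counted once and members of the germ cell lists left out. Of these, 137 were among the genes that the study listed as changed in any comparison, and 127 were tested. Of the 127 tested, 48 rose and 8 fell, where 12.8% of all tested genes rose and 11.7% fell. In bulk samples, fewer cells of a type and less RNA per cell cannot be told apart. This count was 3 without 4i ESC replicate 1 and 21 without 4i ESC replicate 2, 64 without N3+PGCLC replicate 1 and 15 without the filter on low values, and the falls numbered 19 without N3+PGCLC replicate 2. With either N3+PGCLC library left out, the spread comes from the close 4i ESC pair alone. A higher count then is not read as an effect of 1 replicate, here or in the lists below. Most of the rises were of markers of lateral or extraembryonic mesoderm, amnion and endoderm, and of HOX genes. None of the 7 tested genes of paraxial mesoderm passed, and 1 of 4 tested trophoblast genes, 1 of 10 tested endothelial and blood genes and 1 of 12 tested neural genes rose. SOX3 and POU3F1 were the 2 neural genes that fell, and neural falls numbered 5 without N3+PGCLC replicate 2. Of 9 tested primitive streak genes 2 rose and 3 fell. LHX1, a streak and node factor, rose to 1.63 and 1.16 RPKM in N3+PGCLC, against 0.0348 and 0 RPKM in 4i ESC, and FGF8, a streak growth factor, fell to 0.497 and 0.488 RPKM, against 6.67 and 10.8 RPKM in 4i ESC. The streak falls numbered 6 without N3+PGCLC replicate 2, and no streak gene passed without 4i ESC replicate 1. For the endothelial and blood genes the count was 0 without either 4i ESC library and 5 without N3+PGCLC replicate 1.

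Of 18 tested genes of lateral and extraembryonic mesoderm 13 rose and none fell, with a median difference of 4.03. Beside HAND1, FOXF1 had 1.07 and 20.5 RPKM in N3+PGCLC and was listed at 0 and at 0.0419 RPKM in 4i ESC, a difference of 5.36 ± 1.31 (adjusted p = 0.0341, limma). TBX4, a limb and allantois factor, had 6.10 and 9.87 RPKM in N3+PGCLC, against 0 and 0.0436 RPKM in 4i ESC. TCF21, an epicardial and mesenchymal factor, had 0.642 and 8.87 RPKM in N3+PGCLC, against 0 and 0.126 RPKM in 4i ESC, and stopped at an adjusted p of 0.0529 (limma). All 18 genes reached 1 RPKM in N3+PGCLC, and 16 of them stood over 1 log2 unit higher in replicate 2. The genes that rose numbered 1 without 4i ESC replicate 1, and without 4i ESC replicate 2 they numbered 6. They numbered 2 without the filter on low values and 8 without the intensity trend of the limma fit.

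Of 14 tested endoderm genes 7 rose and none fell, with a median difference of 3.71. APOA1, an apolipoprotein made by liver and yolk sac, had 50.4 and 330 RPKM in N3+PGCLC, against 0.877 and 4.11 RPKM in 4i ESC, a difference of 5.99 ± 1.04 (adjusted p = 0.0151, limma). APOA2 had 4.24 and 19.3 RPKM in N3+PGCLC, against 0 and 0.882 RPKM in 4i ESC, and FGB, a fibrinogen chain, had 3.01 and 12.7 RPKM in N3+PGCLC, with 0 RPKM listed for both stem cell libraries. Each was above the stem cell libraries in both N3+PGCLC libraries. HNF4A, a hepatic and visceral endoderm regulator, had 2.71 and 30.8 RPKM in N3+PGCLC, against 0.250 and 1.18 RPKM in 4i ESC, and did not pass (adjusted p = 0.0675, limma). FOXA2 had 1.83 and 16.2 RPKM in N3+PGCLC, against 0.104 and 0.567 RPKM in 4i ESC, and passed at the edge of the threshold. None of the endoderm genes rose without 4i ESC replicate 1, 4 did without 4i ESC replicate 2, and 10 did without N3+PGCLC replicate 1. With no filter on low values 1 rose.

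Of 18 amnion genes 13 rose and none fell, with a median difference of 4.13; 7 of the 18 are also in the BMP target list. Besides MSX2 and TFAP2A, IGFBP3, a secreted IGF-binding protein, had 97.4 and 120 RPKM in N3+PGCLC, against 1.16 and 1.98 RPKM in 4i ESC. ISL1, a factor of amnion and cardiac mesoderm, had 1.83 and 6.63 RPKM in N3+PGCLC, against 0.215 and 0.0666 RPKM in 4i ESC. The amnion markers GABRP and VTCN1, chosen after their values were seen, had 8.76 and 9.55 RPKM and 2.05 and 1.76 RPKM in N3+PGCLC, and in 4i ESC 0.317 and 0.440 RPKM for GABRP and 0 in both libraries for VTCN1. These 2 and IGFBP3 were close to even between the N3+PGCLC replicates, but 14 of 17 amnion genes at 1 RPKM or more were higher in replicate 2, 7 of them by over 1 log2 unit. The amnion genes that rose numbered 3 without 4i ESC replicate 1, and without 4i ESC replicate 2 they numbered 8.

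Of 30 tested HOX genes 11 rose, 1 fell and 18 did not pass. HOXA13, of the posterior end of its cluster, had 3.62 and 7.71 RPKM in N3+PGCLC, against 0 and 0.145 RPKM in 4i ESC, and HOXA10 had 4.93 and 8.26 RPKM in N3+PGCLC, against 0 and 0.355 RPKM in 4i ESC. HOXD1 had 10.5 and 3.44 RPKM in N3+PGCLC, against 0.135 and 0.0408 RPKM in 4i ESC, and was the 1 HOX gene over 1 log2 unit higher in replicate 1. The HOXB genes with the widest replicate gap did not pass. HOXB4 had 0.492 and 13.7 RPKM in N3+PGCLC, against 0.0634 and 0.689 RPKM in 4i ESC, HOXB3 had 3.77 and 53.9 RPKM in N3+PGCLC, against 1.09 and 2.35 RPKM in 4i ESC, and HOXB1 had 0.168 and 4.75 RPKM in N3+PGCLC, against 6.38 and 5.08 RPKM in 4i ESC. No HOX gene rose without 4i ESC replicate 1, while 3 did with 4i ESC replicate 2 left out and 17 with N3+PGCLC replicate 1 left out.

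Of 14 stromal genes 4 rose and 2 fell. LUM, a matrix proteoglycan, rose to 11.4 and 56.3 RPKM in N3+PGCLC, against 0.0232 and 2.01 RPKM in 4i ESC, and TAGLN, a smooth muscle and actin-binding gene, fell to 18 and 19.6 RPKM, against 387 and 351 RPKM in 4i ESC. The list thus held changes in both directions. COL3A1 had 82.2 and 85.4 RPKM in N3+PGCLC, against 1.33 and 23.2 RPKM in 4i ESC, and its spread lay in the stem cell pair. None of the stromal genes rose without 4i ESC replicate 1.

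**Figure D2:**
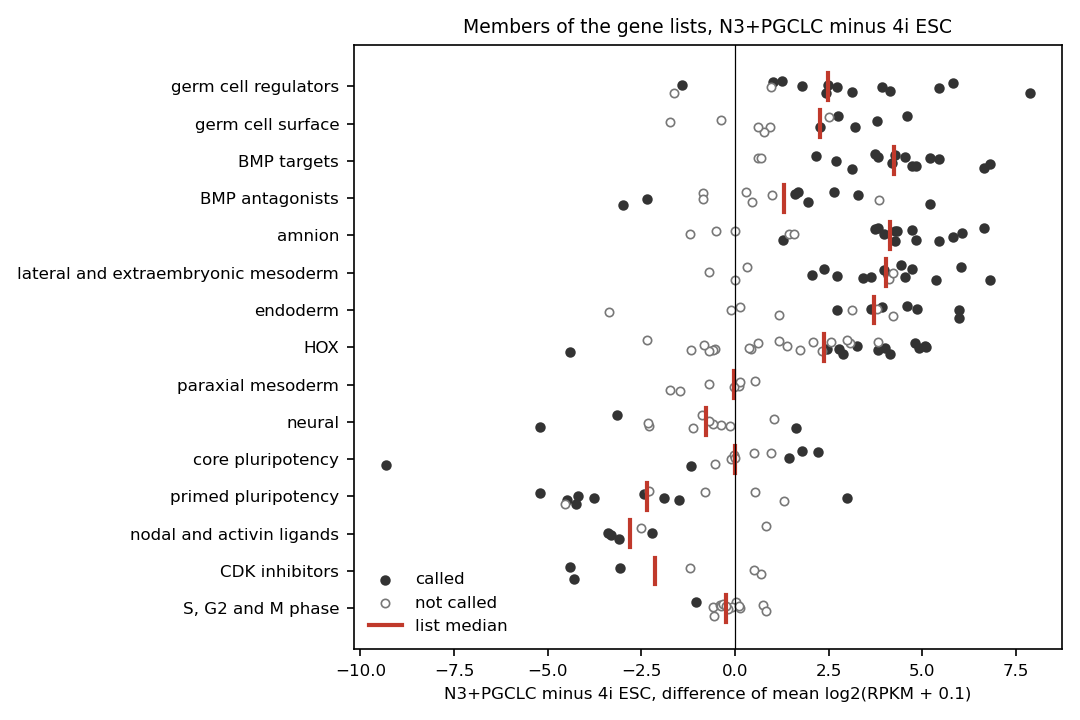
Difference between N3+PGCLC and 4i ESC, in log2(RPKM + 0.1), for each tested member of the gene lists; filled points passed the test, open points did not, and the red bar is the median of the list. BMP targets have a median of 4.24, amnion genes of 4.13 and lateral and extraembryonic mesoderm genes of 4.03, while primed pluripotency genes have a median of -2.35.

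The replicates of N3+PGCLC differed in many genes, most of them outside the somatic and germ cell lists. Counted were the 7055 tested genes at 1 RPKM or more in the higher N3+PGCLC library. A gene could thus enter through 1 library alone. Of these genes, 706 (10.0%) stood over 1 log2 unit higher in replicate 2 and 266 (3.77%) higher in replicate 1. The median difference between replicates was -0.035. Of 98 somatic list genes at this level, 60 were over 1 log2 unit higher in replicate 2 and 2 in replicate 1, and the median was 1.28. Of 27 germ cell list genes, 2 were over 1 log2 unit higher in replicate 2 and 2 in replicate 1, but replicate 2 was the lower library in all but 4 of them, with a median of -0.68. With 2 libraries there is no test of a difference between replicates, and these counts are descriptions. Within the lists, the somatic genes had the wider gap, towards replicate 2, and the germ cell genes a smaller one, towards replicate 1.

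A single-library view gave like totals and mostly shared members. Replicate 2 alone was more than 1 log2 unit above both 4i ESC libraries for 1477 genes (16.3%) and replicate 1 alone for 1437 genes (15.9%). Of these, 1009 were shared, which is 70.2% of those in replicate 1 and 68.3% of those in replicate 2. Among the germ cell list genes 16 were above in both libraries, 1 in replicate 2 only and 4 in replicate 1 only. The 16 include NANOS3, for which the gate selected. Among the somatic list genes 55 were above in both, 15 in replicate 2 only and 3 in replicate 1 only. Most somatic marker rises were therefore present in both N3+PGCLC libraries, at unequal height.

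**Figure D3:**
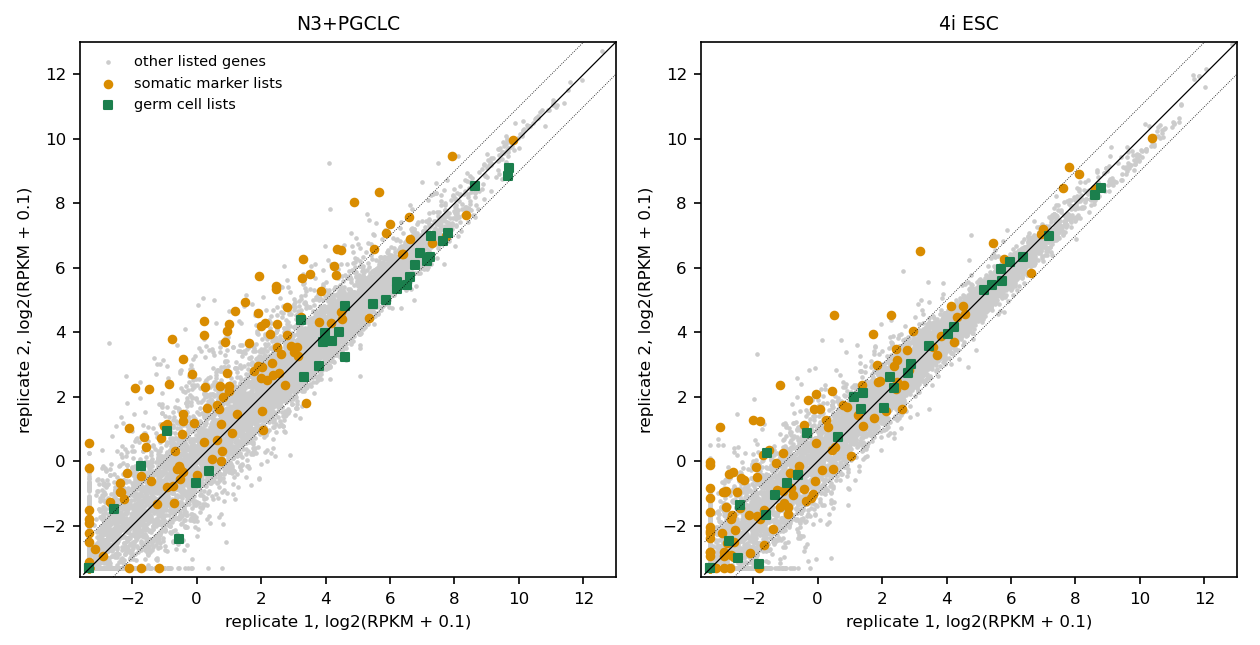
Level in replicate 2 against level in replicate 1, both as log2(RPKM + 0.1), in N3+PGCLC (left) and 4i ESC (right); grey points are all listed genes, orange points somatic list genes, green squares germ cell list genes, and dotted lines mark a gap of 1 log2 unit. In N3+PGCLC 60 of 98 tested somatic genes at 1 RPKM or more lie above the upper line, while germ cell genes lie mostly just under the diagonal.

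Summed levels gave the size of the imbalance. Lateral and extraembryonic mesoderm genes summed to 163 and 783 RPKM in N3+PGCLC, against 53.6 and 85.2 RPKM in 4i ESC. Endoderm genes summed to 91.0 and 508 RPKM in N3+PGCLC, against 14 and 42.3 RPKM in 4i ESC. HOX genes summed to 44.4 and 192 RPKM in N3+PGCLC, against 31.8 and 33.4 RPKM in 4i ESC. Replicate 2 thus held 4.8, 5.58 and 4.32 times the level of replicate 1 for these lists. Such sums lean on abundant members, and APOA1 alone made up most of the endoderm sum in both libraries. Over members at 1 RPKM or more, the median gap towards replicate 2 was 1.89, 2.11 and 1.87 log2 units. Amnion genes summed to 405 and 580 RPKM in N3+PGCLC, against 84.8 and 122 RPKM in 4i ESC, a ratio between the replicates of 1.43. Germ cell regulators summed to 1870 and 1185 RPKM in N3+PGCLC, against 571 and 491 RPKM in 4i ESC, a ratio of 0.633, and surface genes had a ratio of 0.610. POU5F1, which did not pass, was the largest member of the regulator sum. The median gap of the regulators at 1 RPKM or more was -0.67 log2 units. Even the lower library was above both stem cell libraries for each of the 5 sums given.

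**Figure D4:**
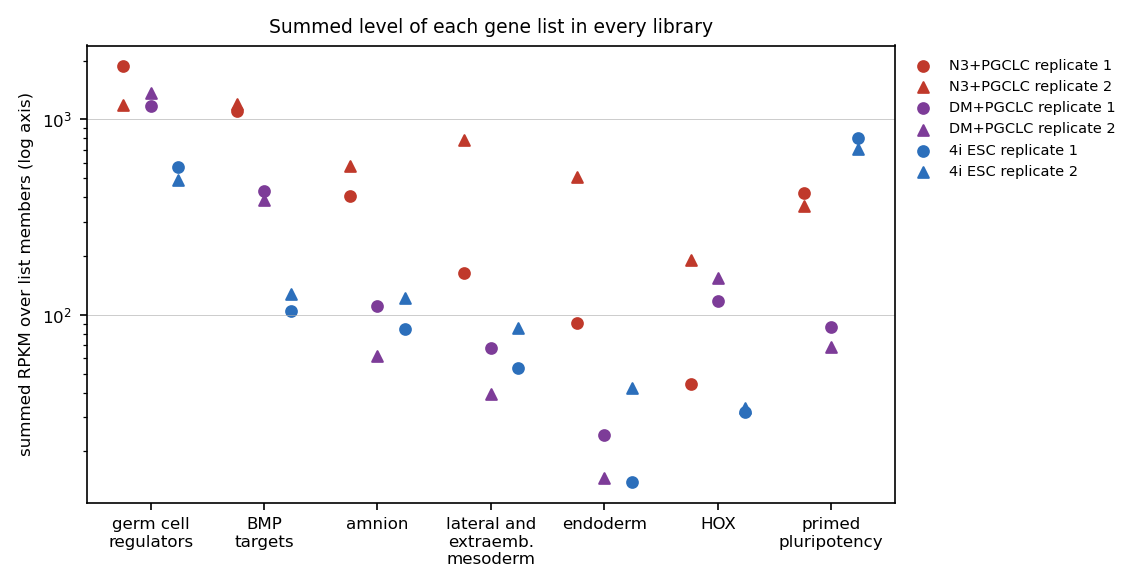
Summed RPKM of each gene list in every library (log axis) of N3+PGCLC, DM+PGCLC and 4i ESC, in this order. In N3+PGCLC replicate 2 lies 5.58 times above replicate 1 for endoderm genes and at 0.633 of it for germ cell regulators.

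The genes with the widest gap between the replicates were sought among those whose higher N3+PGCLC library was over 4 on the log2(RPKM + 0.1) scale. IGF2, an imprinted growth factor abundant in extraembryonic mesoderm and endoderm, had 17.3 and 613 RPKM in N3+PGCLC, against 2.71 and 4.46 RPKM in 4i ESC, a replicate gap of 5.14 log2 units, and did not pass the test between groups (adjusted p = 0.0668, limma). MYL4, an embryonic atrial myosin light chain, had 1.04 and 33.1 RPKM in N3+PGCLC, against 0.170 and 9.98 RPKM in 4i ESC. MASP1, a complement-activating protease, had 0.932 and 28.7 RPKM in N3+PGCLC, against 1.39 and 1.88 RPKM in 4i ESC. MYL4, ALPK2, TMEM88 and CCKBR were also higher in 4i ESC replicate 2 than in 4i ESC replicate 1, by 5.22, 2.28, 2.11 and 2.09 log2 units. ALPK2, a kinase studied in heart development, had 1.36 and 31.8 RPKM in N3+PGCLC, against 1.38 and 7.09 RPKM in 4i ESC, and TMEM88, a WNT inhibitor of heart precursors, had 17.7 and 228 RPKM in N3+PGCLC, against 4.71 and 20.7 RPKM in 4i ESC. CTTNBP2 had 1.42 and 19.4 RPKM in N3+PGCLC, against 1.98 and 2.69 RPKM in 4i ESC, and CCKBR had 1.91 and 25.5 RPKM in N3+PGCLC, against 0.785 and 3.66 RPKM in 4i ESC. With ZIC2, FOXF1 and HOXB3 these were the 10 widest gaps towards replicate 2, and of the 10 FOXF1 passed the test.

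The widest gaps towards replicate 1 were smaller. CDX1 led them with 2.42 log2 units. NMU, the neuromedin U gene, had 107 and 32.2 RPKM in N3+PGCLC, against 19.8 and 19.9 RPKM in 4i ESC, and WNT5B had 80.6 and 26.9 RPKM in N3+PGCLC, against 11.3 and 13.3 RPKM in 4i ESC. LAMA4, a laminin chain, had 205 and 69.5 RPKM in N3+PGCLC, against 3.25 and 9.94 RPKM in 4i ESC. These 4 genes were above the stem cell level in both N3+PGCLC libraries. NANOS1, a relative of NANOS3, had 33.4 and 12 RPKM in N3+PGCLC, against 0.799 and 1.28 RPKM in 4i ESC, so that both NANOS genes were higher in replicate 1. SCUBE2 and BARX1 also rose and had the same order, while CDX1, NMU, WFDC2 and NFE2L3 did not pass. Gaps of over 2 log2 units towards replicate 2 numbered 234 and those towards replicate 1 numbered 23.

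Calls against 4i ESC were also counted by replicate gap. The gap itself enters the spread used by the test, so a wide gap makes a call less likely by construction. Of the 706 genes over 1 log2 unit higher in replicate 2, 97 rose and 64 fell against 4i ESC, and 545 did not pass. Of the 266 higher in replicate 1, 89 rose and 16 fell, and 161 did not pass. Of the 6083 genes within 1 log2 unit, 864 rose and 645 fell, and 4574 did not pass. IGF2, BMP2, HNF4A and HOXB4, with a replicate 2 level far above 4i ESC and a wide gap, are among the 545.

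Somatic marker levels were uneven in the stem cell pair as well. Of 62 somatic list genes at 1 RPKM or more in 4i ESC, 23 stood over 1 log2 unit higher in replicate 2 and 1 in replicate 1, with a median of 0.68. In N3+PGCLC the same count, over all tabulated genes, was 61 and 2 of 99, and in DM+PGCLC it was 0 and 23 of 63, where replicate 1 was the higher library with a median of -0.69. The part of differentiated cells within the sorted stem cells was not tested.

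The largest changes, among genes whose higher group averaged over 4 on the log2(RPKM + 0.1) scale, included some of no list. LRRC38, a potassium channel subunit, had 24.6 and 13.8 RPKM in N3+PGCLC, with 0 RPKM listed for both stem cell libraries, and GSTA3, a glutathione transferase, had 22.9 and 11.1 RPKM in N3+PGCLC and was likewise listed at 0 in 4i ESC. SAMD11 had 57.5 and 32.5 RPKM in N3+PGCLC, against 0.466 and 0.186 RPKM in 4i ESC. EVX1, a homeobox gene of the posterior streak, had 27.3 and 15.4 RPKM in N3+PGCLC, against 0.0437 and 0.165 RPKM in 4i ESC. All 4 were higher in replicate 1. PCP4L1 had 47.5 and 38.7 RPKM in N3+PGCLC, against 0.282 and 0.340 RPKM in 4i ESC, and GABRA3, a GABA receptor subunit, had 32.3 and 16.9 RPKM in N3+PGCLC, against 0.259 and 0.0918 RPKM in 4i ESC. SOX17, HAND1, MSX2 and IGFBP3 complete the 10 largest rises.

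Among the largest falls, SOX2 came first. CD36, a fatty acid and scavenger receptor, was listed at 0 in both N3+PGCLC libraries, against 32.5 and 35.4 RPKM in 4i ESC. CR1L, a complement receptor-like gene, had 0.681 and 0.142 RPKM in N3+PGCLC, against 44.5 and 84.9 RPKM in 4i ESC. THBS2, a matrix thrombospondin, had 0.405 and 0.0483 RPKM in N3+PGCLC, against 30.9 and 26 RPKM in 4i ESC. These genes were close to absent in both germ cell libraries. ACTA1, a muscle actin, had 0.850 and 0.767 RPKM in N3+PGCLC, against 44.0 and 66.8 RPKM in 4i ESC. TRIM22, an interferon-inducible ubiquitin ligase, had 2.97 and 1.67 RPKM in N3+PGCLC, against 141 and 99.0 RPKM in 4i ESC. SPP1, the osteopontin gene, had 12.7 and 11.3 RPKM in N3+PGCLC, against 405 and 506 RPKM in 4i ESC, a difference of -5.23 ± 0.20 (adjusted p = 0.00172, limma). WNT10B and VAT1L were also among the 10 largest falls, and VAT1L had a wide replicate gap, at 0.552 and 3.68 RPKM in N3+PGCLC, against 80.8 and 51.9 RPKM in 4i ESC.

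Imprinted genes and stress genes were counted in the same way, where 12.8% of all tested genes rose and 11.7% fell. Of 13 tested imprinted genes PEG10, a retrotransposon-derived placental gene, rose, with 457 and 352 RPKM in N3+PGCLC, against 119 and 88.6 RPKM in 4i ESC. PHLDA2 and SNRPN fell, SNRPN to 111 and 129 RPKM in N3+PGCLC, against 320 and 281 RPKM in 4i ESC. Of 13 tested stress and immediate early genes 4 rose and 2 fell, EGR1 having 100 and 99.2 RPKM in N3+PGCLC, against 29.9 and 10.8 RPKM in 4i ESC. Sorting and dissociation stress can move such genes, and its part was not tested. With 4i ESC replicate 1 left out, no imprinted gene passed, and 1 stress gene rose and none fell. With N3+PGCLC replicate 1 left out 5 imprinted genes rose, and with N3+PGCLC replicate 2 left out 4 stress genes fell.

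Against DM+PGCLC, fitted with all 10 RNA libraries over 9018 genes, 1329 genes (14.7%) were higher and 1420 (15.7%) lower in N3+PGCLC, a balance that turned to 1547 higher and 1203 lower with median centring. This comparison shares the N3+PGCLC libraries with the one above. BMP targets were higher in N3+PGCLC for 12 of 16 genes and lower for none, with a median difference of 3.33. MSX2 had 158 and 110 RPKM in N3+PGCLC, against 8.58 and 8.22 RPKM in DM+PGCLC, and ID3 had 65.4 and 38.5 RPKM in N3+PGCLC, against 8.74 and 7 RPKM in DM+PGCLC. ID1 differed less, at 705 and 435 RPKM in N3+PGCLC, against 366 and 337 RPKM in DM+PGCLC, and did not pass (adjusted p = 0.124, limma). Lateral and extraembryonic mesoderm genes were higher in N3+PGCLC for 14 of 18 tested, amnion genes for 15 of 18 and endoderm genes for 10, and none of the 3 lists had a gene lower in N3+PGCLC. HAND1 had 29.6 and 264 RPKM in N3+PGCLC, against 0.830 and 0.723 RPKM in DM+PGCLC, and APOA1 had 50.4 and 330 RPKM in N3+PGCLC, against 2.60 and 0.192 RPKM in DM+PGCLC. Both N3+PGCLC libraries, including the one with less somatic marker RNA, were above both DM+PGCLC libraries for these genes.

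Germ cell genes did not follow that order. Of the 15 regulators 4 were higher and 2 lower in N3+PGCLC than in DM+PGCLC. TFCP2L1 had 21.2 and 15.9 RPKM in N3+PGCLC, against 77.3 and 110 RPKM in DM+PGCLC, and TFAP2C had 142 and 74.2 RPKM in N3+PGCLC, against 202 and 241 RPKM in DM+PGCLC. SOX17 had 198 and 113 RPKM in N3+PGCLC, against 88.8 and 113 RPKM in DM+PGCLC, and did not pass. TFAP2A, by contrast, had 18.2 and 13.2 RPKM in N3+PGCLC, against 0.804 and 0.423 RPKM in DM+PGCLC. CDH5 had 0.895 and 0.522 RPKM in N3+PGCLC, against 127 and 202 RPKM in DM+PGCLC, the widest difference among the surface genes. LIN28A had 401 and 372 RPKM in N3+PGCLC, against 16.7 and 8.31 RPKM in DM+PGCLC. LEFTY2, a target of activin and NODAL signalling, had 49.4 and 42.3 RPKM in N3+PGCLC, against 6285 and 4919 RPKM in DM+PGCLC. Primed pluripotency genes were higher in N3+PGCLC for 9 of those tested and lower for 1. Of the 706 genes over 1 log2 unit higher in N3+PGCLC replicate 2, 338 were higher and 44 lower in N3+PGCLC than in DM+PGCLC, against 37 and 73 of the 266 genes higher in replicate 1. Over all genes fitted, 14.7% were higher and 15.7% lower. The library that placed a gene in its group also enters the N3+PGCLC mean. These counts therefore follow in part from the selection and are not read as a result.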

How the data were processed

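RNA-seq libraries came from 300 ng of total RNA (rRNA-depleted, directional). Per the labels and methods, the authors trimmed reads with Trim Galore, aligned them with STAR to GRCh38.p13, kept unique reads and computed RPKM; the deposited levels are log2(RPKM + 0.1) of protein-coding genes in 3 tables of genes the authors had called, so the genes are those changed in some comparison. The authors' own fold changes and FDR values, and 8 enrichment tables, were not used. The number of per-sample columns of no known sample was 0.

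Levels were joined over the 3 tables (9706 genes; 389 at 0 in all 4 libraries and 264 above 0 in 1 were not tested; 5 symbols have 2 IDs). Differences were tested with limma 3.58.1 (trend, R 4.3.3) on the 4 libraries, and for DM+PGCLC on all 10, with Benjamini-Hochberg adjusted p-values, and checked on simulated data. The exact permutation test of 2 against 2 cannot go below p = 0.333. Replicates are, per the study, independent experiments. Sums are of RPKM.

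The text names all members of the germ cell and BMP lists of interest, the 10 largest rises, falls and replicate gaps in each direction (level over 4), and of other lists up to 3 members by difference in each direction and 3 by replicate gap. Members and lists were chosen with earlier results of these data known. Alternatives were the pseudocount, filters, median centring, no trend, all 10 libraries, a replicate block and leaving out each library. CUT&RUN samples were not analysed here. Promoters are from RefSeq GRCh38.p14. Some items that the rule would name are not reported here.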

Additional observations from a re-analysis of the deposited data

How the results depend on the processing

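Direction was checked for the 69 called genes of the germ cell and BMP lists and of the largest changes and replicate gaps. None of them reversed, but balances of counts did. The other named genes were not checked in this way, and sums were recomputed only with median centring, for some lists. The number of genes called between N3+PGCLC and 4i ESC, 2221, was 902 without a filter on low values and lay between 86 and 2798 when 1 library was left out (86 and 377 with the first and the second 4i ESC library left out). By construction, leaving out a 4i ESC library leaves the spread to the N3+PGCLC pair alone. Leaving out an N3+PGCLC library leaves it to the closer 4i ESC pair. In each case the lone library is assumed to vary like the other group. Genes apart by over 1 log2 unit numbered 1170 with a pseudocount of 1, against 1948. The split of 1161 higher and 1060 lower was 1161 and 1153 with median centring, 435 and 467 without a filter, and 1337 and 1461 without N3+PGCLC replicate 2. Against DM+PGCLC, 1329 higher and 1420 lower turned to 1547 and 1203 with median centring. With no filter on low values the list counts that rose were 8 for BMP targets, 8 for amnion, 4 for HOX and 9 for germ cell regulators, and the cause was not tested. The shared replicate numbers gave a correlation of replicate deviations of 0.116 between N3+PGCLC and 4i ESC, across 7014 genes and 2 pairs. They were treated as numbers only, although somatic list genes leaned to replicate 2 in both groups, with medians of 1.29 and 0.68. With the replicate block 60 somatic list genes rose, against 48, and HAND1 had an adjusted p of 2.81e-06, against 0.0211 (limma). In all, 2549 genes were called with the block, and 2714 for N3+PGCLC against DM+PGCLC (2749 without it). There the deviations correlated at -0.207, and the crossed pairing gave 2762 calls. For that comparison leaving out 1 library gave between 1911 and 2776 calls. A group size of 2 libraries limits every count above, and changes of genes outside the deposited lists cannot be read.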
